A study of Homo sapiens with 12 samples.

Results

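The 9 genes described here encode receptors, a lysosomal protein and secreted proteins by which human monocytes and macrophages are recognised: CD14, CD4, CD68, ITGAM, CSF1R, FCGR2A, S100A8, S100A9 and LYZ. They were chosen by name, and the transcript rows that GENCODE release 29 assigns to each gene were summed, which gave 9 of 57865 genes. All 9 members passed the filter on low counts and were among the 15424 genes tested. They were measured by total RNA sequencing in 4 human acute myeloid leukaemia (AML) cell lines called MOLM-14, KG-1a, OCI-AML3 and MV4-11. Each was exposed for 12 h to 10 µM pioglitazone, to 10 µM darglitazone or to DMSO, the solvent control, and each combination of line and treatment is 1 library (12 in all). The 3 libraries of a line are therefore its 3 treatments and not repeated cultures, and every p-value for a drug measures the spread of the response between the 4 lines. A cell line is a single leukaemic population grown in culture, so these levels describe 4 such populations and not monocytes of healthy blood. MOLM-14 and MV4-11 are known as lines with a KMT2A fusion and an internal tandem duplication of FLT3, OCI-AML3 as a line with mutated NPM1, and KG-1a as a poorly differentiated subline of KG-1. Pioglitazone and darglitazone are thiazolidinediones, ligands of the nuclear receptor PPARG, and the comparison asks how far each drug moved these genes.

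Monocytes arise in the bone marrow from a precursor shared with granulocytes, under the control of the transcription factors PU.1, IRF8 and the C/EBP family and of signals through the CSF1 receptor. CD14 passes lipopolysaccharide to the receptor TLR4, ITGAM (CD11b) pairs with ITGB2 to form the complement receptor CR3, FCGR2A binds immune complexes, and CD4 is carried by human monocytes as well as by helper T cells. CD68 is a lysosomal glycoprotein, LYZ is the lysozyme that monocytes secrete, and S100A8 and S100A9 join as calprotectin, which neutrophils and monocytes hold in large amounts. In AML these genes are used to tell monocytic from primitive leukaemias.

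The upstream sequences of 3 members are shown because the results turn on them. S100A9 had the lowest fitted value of the members with each drug, and S100A8 is its partner. ITGAM was highest in KG-1a, the line that was lowest for most members. RefSeq (GRCh38.p14) held an upstream window for 7 of the 9 members, and CD4 and LYZ had none in that table. The windows were searched on both strands for GAGGAA (a core of PU.1 sites) and TTNNGNAA (a C/EBP core), where N is any base, and matches are in capitals. The S100A9 window is chr1:153357604-153357853 on the plus strand, that of S100A8 is chr1:153391189-153391438 on the minus strand, and that of ITGAM is chr16:31259725-31259966 on the plus strand. All 3 windows end at the base before the annotated start and hold no GENCODE exon.
S100A9: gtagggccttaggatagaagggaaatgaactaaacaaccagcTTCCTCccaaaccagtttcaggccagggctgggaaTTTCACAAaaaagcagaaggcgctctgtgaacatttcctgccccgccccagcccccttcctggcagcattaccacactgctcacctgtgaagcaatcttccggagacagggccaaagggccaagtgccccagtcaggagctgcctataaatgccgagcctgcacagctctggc
S100A8: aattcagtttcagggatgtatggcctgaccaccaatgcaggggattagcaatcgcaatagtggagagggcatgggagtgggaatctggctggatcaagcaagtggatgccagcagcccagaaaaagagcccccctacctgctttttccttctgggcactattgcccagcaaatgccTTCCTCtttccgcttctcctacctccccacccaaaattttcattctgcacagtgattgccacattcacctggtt
ITGAM: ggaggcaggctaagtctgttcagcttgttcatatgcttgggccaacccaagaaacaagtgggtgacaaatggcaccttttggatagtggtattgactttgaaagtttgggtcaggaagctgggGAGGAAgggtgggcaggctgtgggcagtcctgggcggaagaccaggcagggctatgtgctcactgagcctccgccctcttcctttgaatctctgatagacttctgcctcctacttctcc
In S100A9 the PU.1 match began 208 bases before the start and the C/EBP match 173 bases before it. In S100A8 a single PU.1 match began 74 bases before the start, and in ITGAM a single PU.1 match began 119 bases before it. Over the 250 bases before each start, 6 of the 7 members held GAGGAA against 23.6% of 35116 RefSeq promoters, 4 held TTNNGNAA against 33.2%, and 3 held GGGCGG (an SP1 core) against 42.6%. The windows of CD14 and CD68 lie wholly within GENCODE exons, and of the other 5 windows 4 held GAGGAA, 2 held TTNNGNAA and 3 held GGGCGG outside exons. The consensus direct repeat of PPAR response elements was in none of the 7 windows and in 0.0171% of all promoters. These matches describe letters in a window and were not tested as binding sites.

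The libraries differed 58.6-fold in depth, from 1095491 counts in pioglitazone-treated OCI-AML3 to 64236554 in DMSO-treated OCI-AML3. An entry derived from ribosomal RNA made up 23.535% of the counts of pioglitazone-treated KG-1a and 6.174% of those of pioglitazone-treated OCI-AML3, and at most 0.542% elsewhere. Genes found almost only in a single line were also read at a low level in other lines' libraries. In darglitazone-treated KG-1a, 6 genes typical of MV4-11 stood at a median of 3.94% of their MV4-11 level, against 0.08% in pioglitazone-treated KG-1a. These genes were picked for a level under 1% of that of MV4-11 in at least 1 KG-1a library. A low value in some KG-1a library was therefore built in. In pioglitazone-treated OCI-AML3, 67 genes typical of KG-1a had a median level 2.07% as high as in KG-1a itself. The rule for these genes was settled after the values were seen, and its values are given below beside the members they touch most.

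In total the 9 members made up 1920 to 2550 CPM (counts as a share of the library size, scaled by TMM) in MV4-11, 557 to 863 in OCI-AML3, 474 to 513 in MOLM-14 and 148 to 244 in KG-1a. LYZ alone gave 75.3% to 83.3% of that sum in MV4-11 and 14.5% to 31.6% in KG-1a. Per length, in TPM (transcripts scaled by their length), LYZ was the highest member in MOLM-14 (183 ± 36.9), OCI-AML3 (437 ± 135) and MV4-11 (1920 ± 406), while in KG-1a LYZ (45.7 ± 35.6) and ITGAM (31.1 ± 10.4) overlapped (mean ± SD, n = 3 libraries of each line). The highest LYZ level and share in KG-1a (85.25 TPM, 31.6%) are those of the darglitazone library, where other lines' genes match 97.6% of the LYZ counts. With DMSO and pioglitazone, ITGAM stood above LYZ in KG-1a, at 41.83 and 20.97 TPM against 35.77 and 16.1. CD14 was the lowest member in KG-1a and in MV4-11, with a TPM of 0 and of 0.0249 ± 0.0432. The level of every member differed between the 4 lines in edgeR's quasi-likelihood F test (9 of 9 called, adjusted p between 1.73e-10 and 0.00056), but 72.6% of all genes tested were called too, so that count is not particular to the members. By pairs of lines, 9 of 9 members were called between OCI-AML3 and KG-1a (51.5% of all genes), 8 between MOLM-14 and KG-1a (52.7%) and 8 between MV4-11 and KG-1a (47.4%). The other pairs gave 7 between OCI-AML3 and MV4-11 (40.7%), 5 between MOLM-14 and MV4-11 (37.1%) and 5 between MOLM-14 and OCI-AML3 (33.6%). The 3 libraries of each line did not overlap for 9 members between OCI-AML3 and KG-1a (52.7% of all genes), 8 between MOLM-14 and KG-1a (66.2%) and 8 between MOLM-14 and OCI-AML3 (47.5%). They did not for 7 between MV4-11 and KG-1a (58.3%), 7 between OCI-AML3 and MV4-11 (48.2%) and 5 between MOLM-14 and MV4-11 (60.2%). KG-1a was the lowest line for 7 members, the highest for ITGAM, and the second highest for FCGR2A.

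**Figure D1:**
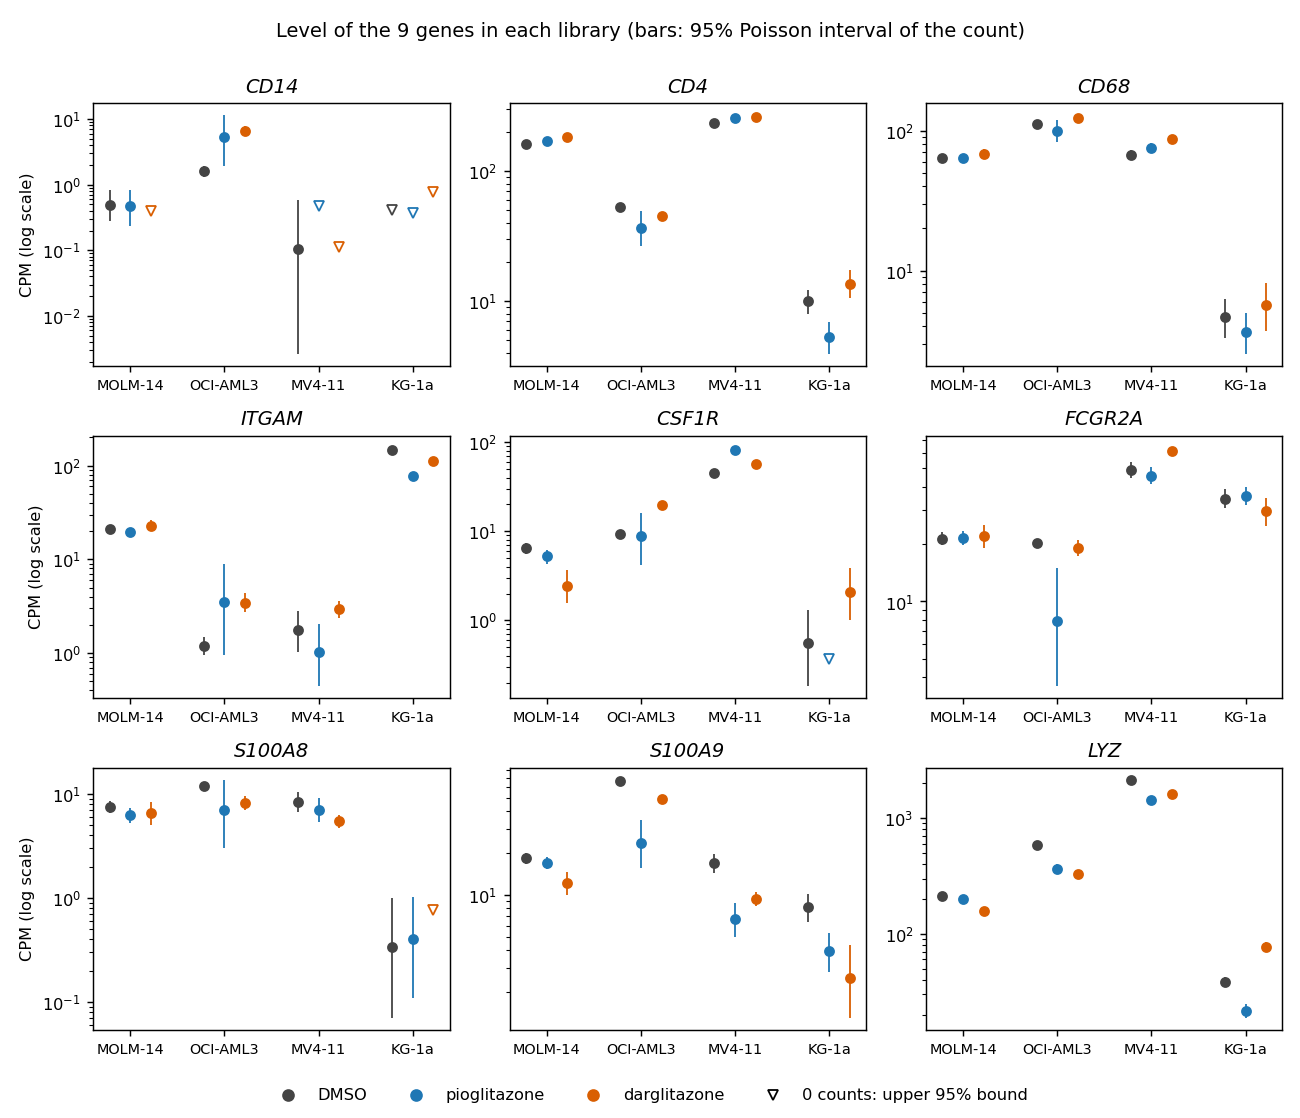
Level of each of the 9 members in the 12 libraries, in TMM-scaled CPM on a log axis, by cell line, with 1 point for each treatment. LYZ peaked in MV4-11 with 1446 to 2123 CPM, and ITGAM was highest in KG-1a with 77.6 to 148 CPM.

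Among the surface receptors, CD14 (chr5:140631728-140633701, minus strand) was found almost only in OCI-AML3, at 1.61 CPM with DMSO, 5.25 with pioglitazone and 6.64 with darglitazone. MOLM-14 gave 0.496, 0.47 and 0 CPM in the same order, MV4-11 gave 0.103, 0 and 0 (a single count in all), and KG-1a gave 0 counts in its 3 libraries. All 3 OCI-AML3 libraries were above every other library. Against the limit that 3 counts over the pooled KG-1a libraries set (0.127 CPM), CD14 was at least 22.4-fold higher in OCI-AML3, with an edgeR adjusted p of 0.00132. OCI-AML3 also exceeded MOLM-14, the next line, by 12.8-fold (95% interval 2.46 to 66.7, edgeR adjusted p = 0.0203). That call was lost without the pioglitazone library of either line (edgeR adjusted p = 0.0747 without that of MOLM-14 and 0.0758 without that of OCI-AML3) and without the darglitazone library of either (0.0999 and 0.135), and without the pioglitazone libraries of OCI-AML3 and KG-1a together (0.072). The fold was 6.77 and 5.98 without the darglitazone library of MOLM-14 and of OCI-AML3, and 23.6 and 32.9 without their DMSO libraries. Neither MOLM-14 and MV4-11 nor MV4-11 and KG-1a differed past the threshold (edgeR adjusted p = 0.0916 and 0.587), although edgeR called MOLM-14 against MV4-11 with no filter on low counts (adjusted p = 0.0324), after subtraction of other lines' counts (0.0418) and without darglitazone-treated MOLM-14 (0.0435).

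CSF1R (chr5:150053291-150113372, minus strand), the receptor for CSF1 and IL34 on which monocyte survival depends, was highest in MV4-11, at 45.4, 80.6 and 56.1 CPM with DMSO, pioglitazone and darglitazone. OCI-AML3 gave 9.26, 8.76 and 19.4 CPM, MOLM-14 gave 6.45, 5.22 and 2.45, and KG-1a gave 0.565, 0 and 2.09. No 2 lines overlapped. These levels sum all transcripts of the gene. Of the counts, 43.35% were assigned to a transcript annotated under nonsense-mediated decay and not as protein-coding. Its share was 49.81% in MV4-11, 29.13% in OCI-AML3, 33.23% in MOLM-14 and 8.64% in KG-1a. Per library it ran from 34.2% to 58.6% in MV4-11 and from 23.2% to 73% in OCI-AML3. MV4-11 stood 4.59-fold above OCI-AML3 (95% interval 1.83 to 11.6, edgeR adjusted p = 0.0161) and MOLM-14 7.46-fold above KG-1a (1.84 to 30.3, edgeR adjusted p = 0.023), while OCI-AML3 and MOLM-14 did not differ past the threshold (edgeR adjusted p = 0.122). That last step was called in 8 of 23 alternatives, among them limma-voom (adjusted p = 0.00787), edgeR after subtraction of other lines' counts (0.0203) and edgeR without KG-1a (0.0369). The call between MV4-11 and OCI-AML3 was lost without the DMSO library of OCI-AML3 (edgeR adjusted p = 0.077) or the pioglitazone library of MV4-11 (0.0563), and that between MOLM-14 and KG-1a without the DMSO library of either line (0.072 and 0.101) or the pioglitazone library of MOLM-14 (0.0683), and without the pioglitazone libraries of OCI-AML3 and KG-1a together (0.0679). Its fold was 4.2 without pioglitazone-treated KG-1a and 18.3 without darglitazone-treated KG-1a. The 10 counts in darglitazone-treated KG-1a compare with 12.4 counts that the level of the other lines' typical genes in that library would give, so CSF1R was not detectable there beyond that level, and in DMSO-treated KG-1a 82.5% of the 5 counts are matched.

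ITGAM (chr16:31259967-31332892, plus strand) had an order of mean levels opposite to that of CSF1R. KG-1a carried 148, 77.6 and 113 CPM with DMSO, pioglitazone and darglitazone, and MOLM-14 carried 21.2, 19.7 and 22.9. OCI-AML3 (1.19, 3.5 and 3.46 CPM) and MV4-11 (1.76, 1.03 and 2.92 CPM) were low and overlapped. KG-1a exceeded MOLM-14 by 5.21-fold (95% interval 3.29 to 8.28, edgeR adjusted p = 4.35e-05), MOLM-14 exceeded OCI-AML3 by 11.0-fold (6.06 to 20.0, edgeR adjusted p = 3.74e-05), and OCI-AML3 and MV4-11 did not differ past the threshold (edgeR adjusted p = 0.989). The step from OCI-AML3 to MOLM-14 was 6.77-fold without DMSO-treated OCI-AML3 and 17.6-fold without darglitazone-treated OCI-AML3. From the highest to the lowest line the fold was 57.3 (31.8 to 103, edgeR adjusted p = 1.97e-07). The 4 counts of ITGAM in pioglitazone-treated OCI-AML3 compare with 2.6 that the level of other lines' typical genes there, mainly those of KG-1a, would give. In MV4-11, 20.4% to 36.7% of the counts are likewise matched, again mainly by KG-1a genes.

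FCGR2A (chr1:161505430-161524013, plus strand) varied least among the members. MV4-11 gave 48.9, 45.7 and 61.5 CPM with DMSO, pioglitazone and darglitazone, and KG-1a gave 34.7, 35.8 and 29.7. MOLM-14 held to 21.4, 21.6 and 22.1 CPM, and OCI-AML3 gave 20.2, 7.88 (9 counts) and 19.1. The lines did not overlap, but the steps were small: 1.54-fold from KG-1a to MV4-11 (95% interval 1.13 to 2.1, edgeR adjusted p = 0.0221), 1.55-fold from MOLM-14 to KG-1a (1.14 to 2.11, edgeR adjusted p = 0.0189) and 1.26-fold from OCI-AML3 to MOLM-14 (0.914 to 1.74, edgeR adjusted p = 0.273). The first of these calls was lost without the pioglitazone or darglitazone library of MV4-11 (edgeR adjusted p = 0.0504 and 0.125) or the DMSO or darglitazone library of KG-1a (0.0738 and 0.133). The next was lost without the DMSO or darglitazone library of MOLM-14 (0.0862 and 0.0867) or the DMSO or pioglitazone library of KG-1a (0.0614 and 0.158), and with no filter on low counts (0.0565). Other lines' genes match 14.4% of the 9 counts in pioglitazone-treated OCI-AML3 and 8.16% of the 142 in darglitazone-treated KG-1a. In its main transcript, 26.2% of the stretches of 50 bases also occur in other genes, most of them in FCGR2C, so reads could be split between these copies and the level is uncertain to that extent.

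CD4 (chr12:6786858-6820808, plus strand), the receptor for IL16 and the coreceptor of helper T cells, was high in MV4-11, at 236, 258 and 263 CPM with DMSO, pioglitazone and darglitazone, and in MOLM-14, at 162, 172 and 184. OCI-AML3 gave 53.3, 36.8 and 45.5 CPM and KG-1a gave 9.94, 5.23 and 13.6. The 4 lines did not overlap, and all 3 steps were called. The steps were 1.46-fold from MOLM-14 to MV4-11 (95% interval 1.09 to 1.96, edgeR adjusted p = 0.0402), 3.81-fold from OCI-AML3 to MOLM-14 (2.77 to 5.21, edgeR adjusted p = 9.69e-06) and 4.99-fold from KG-1a to OCI-AML3 (3.53 to 7.01, edgeR adjusted p = 1.72e-06). The step from MOLM-14 to MV4-11 was lost in 7 of the 14 fits without a library or a line that could give it, with an edgeR adjusted p of up to 0.264 (without pioglitazone-treated MV4-11), and after subtraction of other lines' counts (0.0867). In darglitazone-treated KG-1a, 58.3 of the 65 counts of CD4 are matched by the level of the other lines' typical genes. After their subtraction the step from KG-1a to OCI-AML3 was 9.45-fold (edgeR adjusted p = 2.77e-06), and after thinning to the shallowest library it was 7.52-fold.

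CD68 (chr17:7579467-7582113, plus strand), the lysosomal member, set KG-1a apart. OCI-AML3 gave 112, 99.8 and 124 CPM with DMSO, pioglitazone and darglitazone, MV4-11 gave 67.4, 75.1 and 87.6, and MOLM-14 gave 63.4, 63.8 and 68.1. KG-1a gave 4.63, 3.62 and 5.64 CPM. The step from KG-1a to MOLM-14 was 14.3-fold (95% interval 11.3 to 18.3, edgeR adjusted p = 3.26e-10), and that from MV4-11 to OCI-AML3 was 1.46-fold (1.21 to 1.78, edgeR adjusted p = 0.00394), lost without the DMSO library of MV4-11 (edgeR adjusted p = 0.0528) and after thinning all libraries to the depth of the shallowest (0.145). In darglitazone-treated KG-1a 20.9 of the 27 counts of CD68 are matched by other lines' genes, and in DMSO-treated KG-1a 19.5% of the 41. After their subtraction KG-1a stood at 3.73, 3.32 and 1.25 CPM, and the step from KG-1a to MOLM-14 was 21.7-fold (edgeR adjusted p = 1.07e-09). MOLM-14 and MV4-11 overlapped (edgeR adjusted p = 0.182). The main CD68 transcript shares 92.6% of its stretches of 50 bases with an overlapping processed transcript on the same strand, which held 2261 counts over all libraries beside 18474 for CD68, so the split between them is uncertain.

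Of the secreted proteins, LYZ (chr12:69348341-69354234, plus strand) was highest in MV4-11, at 2123, 1446 and 1605 CPM with DMSO, pioglitazone and darglitazone, followed by OCI-AML3 at 588, 364 and 328. MOLM-14 gave 212, 198 and 156 CPM and KG-1a gave 38.3, 21.4 and 76.9. The 4 lines did not overlap. MV4-11 exceeded OCI-AML3 by 4.06-fold (95% interval 2.03 to 8.11, edgeR adjusted p = 0.0074) and MOLM-14 exceeded KG-1a by 4.41-fold (2.14 to 9, edgeR adjusted p = 0.00498), while the 2.2-fold step from MOLM-14 to OCI-AML3 missed the threshold (edgeR adjusted p = 0.0755). It was called in 7 of 23 alternatives, among them DESeq2 (adjusted p = 0.0272), limma-voom (0.000342) and edgeR without KG-1a (0.000112). In darglitazone-treated KG-1a, the highest LYZ library of that line, 359.3 of the 368 counts are matched by the level of other lines' typical genes, mainly those of MV4-11. After these were subtracted, 1.88 CPM of the 76.9 remained. The step from KG-1a to MOLM-14 was 7.16-fold without that library and 13.2-fold after subtraction in all libraries (edgeR adjusted p = 5.32e-08 and 0.000883). In DMSO-treated KG-1a 35.5% of the 339 LYZ counts are matched in the same way.

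S100A8 (chr1:153390032-153391188, minus strand) separated KG-1a from the rest. MOLM-14 gave 7.5, 6.29 and 6.61 CPM with DMSO, pioglitazone and darglitazone, OCI-AML3 gave 12, 7 (8 counts) and 8.2, and MV4-11 gave 8.48, 7.1 and 5.48. KG-1a had 3, 4 and 0 counts. MOLM-14, OCI-AML3 and MV4-11 overlapped and no pair of them was called by edgeR (adjusted p of at least 0.38; limma-voom called OCI-AML3 against MV4-11 with 0.0418), while MOLM-14 stood 23.8-fold above KG-1a (95% interval 11.2 to 50.9, edgeR adjusted p = 3.43e-06). Without the KG-1a libraries the difference between the lines was not called (edgeR adjusted p = 0.338). Other lines' genes match 24.7% of the 3 counts in DMSO-treated KG-1a. After thinning to the shallowest library, at which these KG-1a levels amount to less than 1 count, the fitted step from KG-1a to MOLM-14 was 67.2-fold.

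S100A9 (chr1:153357854-153361027, plus strand) was highest in OCI-AML3, at 65.9, 23.6 (27 counts) and 49.1 CPM with DMSO, pioglitazone and darglitazone. MOLM-14 gave 18.3, 17.1 and 12.2 CPM, MV4-11 gave 16.9, 6.71 and 9.38, and KG-1a gave 8.13, 3.92 and 2.51. OCI-AML3 lay above all other libraries, by 2.87-fold over MOLM-14 (95% interval 1.88 to 4.35, edgeR adjusted p = 0.000791). MOLM-14 and MV4-11 overlapped (edgeR adjusted p = 0.0951; called with no filter on low counts, 0.0427, and after thinning, 0.039), and so did MV4-11 and KG-1a although that step was called (2.22-fold, 1.39 to 3.53, edgeR adjusted p = 0.00739), with DMSO-treated KG-1a (8.13) above pioglitazone-treated MV4-11 (6.71). That call was lost without the treatment term (edgeR adjusted p = 0.0628) and after thinning to the shallowest library (0.245).

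Over the 12 libraries the members formed different profiles, given here as Pearson correlations of log2 CPM, which rest on 4 lines and are descriptions. CSF1R and LYZ had like profiles (r = 0.96), as had CD68 and S100A8 (r = 0.94), while ITGAM ran against LYZ (r = -0.91). The genes whose profile was most like that of a member were MPEG1 (r = 0.984) and FAM83H (0.982) for CSF1R and CCR2 (0.985) and SEZ6L2 (0.983) for LYZ. They were ABR (0.989) and CFD (0.988) for CD4, ASB1 (0.992) and TBX3 (0.991) for CD68, and OGFRL1 (0.961) and IBA57 (0.944) for CD14. For the remaining members they were ADAR (0.975) and BHLHE40 (0.971) for ITGAM, C7orf50 (0.982) and CAMTA1 (0.971) for FCGR2A, PAFAH1B1 (0.986) and NDUFS4 (0.981) for S100A8, and TAF5L (0.96) and SIRPB1 (0.958) for S100A9. MPEG1 encodes the macrophage pore protein perforin-2 and CCR2 the chemokine receptor of classical monocytes.

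The genes that act with the members were read from a list of 18 partners, of which 14 passed the filter and 12 were called between the lines (85.7%, beside 72.6% of all genes). Both ligands of CSF1R were scarce: CSF1 did not exceed 1.01 ± 1.25 CPM (mean ± SD, n = 3 libraries of a line; MV4-11), and IL34 was listed at 0 in MOLM-14, OCI-AML3 and MV4-11. ITGB2, the partner chain of ITGAM, was abundant in every line, from 129 ± 42.6 CPM in OCI-AML3 to 230 ± 10 in MOLM-14, including the lines in which ITGAM was low. TLR2, which signals with CD14, was highest in MV4-11 (102 ± 9.85 CPM) and OCI-AML3 (44.5 ± 10.2). TLR4 was highest in the same lines (10.3 ± 4.09 and 6.59 ± 5.89), which overlapped, at 6.2 to 14.4 and 2.63 to 13.4 CPM. LY96, the TLR4 subunit that holds lipopolysaccharide, was at 0 in MV4-11 and highest in KG-1a (2.33 ± 0.201 CPM), and LBP did not exceed 0.425 ± 0.336 CPM. AGER, a receptor for S100A8 and S100A9, lay between 1.17 ± 0.515 and 3.1 ± 1.35 CPM and was not called between the lines.

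Among Fc receptors, FCGR1A was highest in OCI-AML3 (143 ± 27.5 CPM, n = 3), where FCGR2A was lowest, and lowest in KG-1a (9.55 ± 2.35). FCGR2B and FCGR2C were highest in MOLM-14 (7.5 ± 0.418 and 4.67 ± 1.7 CPM), FCGR3A and FCGR3B did not exceed 0.602 ± 1.04 CPM, and these 4 share sequence with FCGR2A or with each other. The signalling adaptor FCER1G was lowest in MOLM-14 (0.787 ± 0.253 CPM) against 18.2 ± 4.96 in MV4-11 and 17.3 ± 1.19 in KG-1a. TYROBP and the kinase SYK were both highest in MV4-11 (124 ± 16.4 and 473 ± 0.306 CPM). The partners of CD4 were highest in KG-1a, the line with least CD4: IL16, its ligand, stood at 238 ± 6.36 CPM and the kinase LCK, which binds its tail, at 139 ± 1.98, and LCK did not exceed 0.609 ± 0.99 elsewhere.

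The wider marker lists gave the lines' other myeloid genes. Of 32 further monocyte genes 26 were tested and 26 called between lines, beside 72.6% of all genes. The 32 genes summed to 2260 to 2340 CPM in MV4-11 and 707 to 990 in KG-1a. CST3 (612 ± 53.9 CPM, n = 3), MS4A6A (353 ± 61.9) and the receptor CCR2 (114 ± 11) were highest in MV4-11, while S100A12, FCN1 and VCAN did not exceed 1.16 ± 0.631 CPM (VCAN in MOLM-14) in any line. These 6 were chosen after their values were seen. Of 28 macrophage genes 17 were tested and 15 called (88.2%, beside the same 72.6%). Their sum was highest in KG-1a (1920 to 2290 CPM), where STAB1, a scavenger receptor of macrophages and endothelium, alone gave 1410 ± 206 CPM, while C1QC was at 0 in all 12 libraries and CD163 did not exceed 0.519 ± 0.731 CPM. Of 14 monocyte transcription factors 11 were tested and 10 called (90.9%, beside 72.6% of all genes). IRF8 was at 601 ± 20.6 CPM in MV4-11, 420 ± 11.6 in MOLM-14, 230 ± 100 in OCI-AML3 and 20.9 ± 13.7 in KG-1a. CEBPA was at 332 ± 11.5, 502 ± 11.1, 247 ± 90.6 and 66.3 ± 24.3 in the same order. SPI1, which encodes PU.1, varied less (106 ± 9.26 in MOLM-14 to 210 ± 23.8 CPM in MV4-11). Other factors went another way. CEBPB had its highest mean in KG-1a (22.5 ± 5.43 CPM), and IRF5 there (52.7 ± 5.46) exceeded MOLM-14 (24.5 ± 2.51) and OCI-AML3 (9.53 ± 4.06). By the fitted value 8, 8 and 9 of the 11 tested were higher in MOLM-14, OCI-AML3 and MV4-11 than in KG-1a, beside 7989, 7827 and 7894 of all 15424 genes.

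Markers of other cell types set KG-1a apart again. Its 12 stem and progenitor markers summed to 1840 to 2070 CPM against 360 to 598 in the other lines, with CD34 at 653 ± 57.8 and GATA2 at 488 ± 43.7 CPM (n = 3). Its 16 T cell and NK markers summed to 195 to 231 CPM against 10.7 to 61.1 elsewhere, of which NKG7 gave 126 ± 16.1, CD247 28.9 ± 4.79, CD7 20.3 ± 3.01 and CD3E 13.5 ± 1.73 CPM. TRAC, CD8A and BCL11B did not exceed 0.46 ± 0.399 CPM there (TRAC). The erythroid, megakaryocyte and mast cell markers summed to 272 to 363 CPM there, of which ITGA2B gave 252 ± 44.6, against at most 14.6 elsewhere. Granule markers of granulocytes and their precursors summed to 2360 to 2740 CPM in MOLM-14, 978 to 2130 in OCI-AML3 and MV4-11 and 170 to 264 in KG-1a. Dendritic cell markers summed to 416 to 625 CPM in MV4-11 and 30.6 to 43.5 in KG-1a, of which FLT3 gave 417 ± 98.9 in MV4-11 and 7.13 ± 8.48 in KG-1a, while CD1C and FCER1A were highest in KG-1a (4.58 ± 1.56 and 4.84 ± 0.969 CPM). B cell markers summed to at most 75 CPM in any library. These are bulk samples, in which fewer cells of a type and less RNA per cell cannot be told apart, and the part of these other genes in the members' levels was not tested.

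Neither drug changed any of the 9 members past the threshold over the 4 lines. With pioglitazone, edgeR's quasi-likelihood test called 0 of 9 members and 0 of all 15424 genes (a background of 0%), with 1 member and 5.96% of all genes at an unadjusted p under 0.05. With darglitazone it called 0 of 9 (background 0%), with 1 member and 3.4% of genes under that p. DESeq2 called 6 genes (0.0389%) and 0 of 9 members with darglitazone. With pioglitazone it called 56 genes (0.363%), but its independent filter left an adjusted p to 5257 genes and 4 of the 9 members (0 called), and to neither S100A9 nor CD14. With either drug limma-voom called 0 members and 0 genes. DESeq2 put 1 member under an unadjusted p of 0.05 with each drug, and limma-voom 2 with pioglitazone and 4 with darglitazone. The median log2 change of the members was -0.22 with pioglitazone and 0.03 with darglitazone, beside -0.02 and 0.01 over all genes. The drugs were compared with the same DMSO libraries, so their values are not independent of each other.

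**Figure D2:**
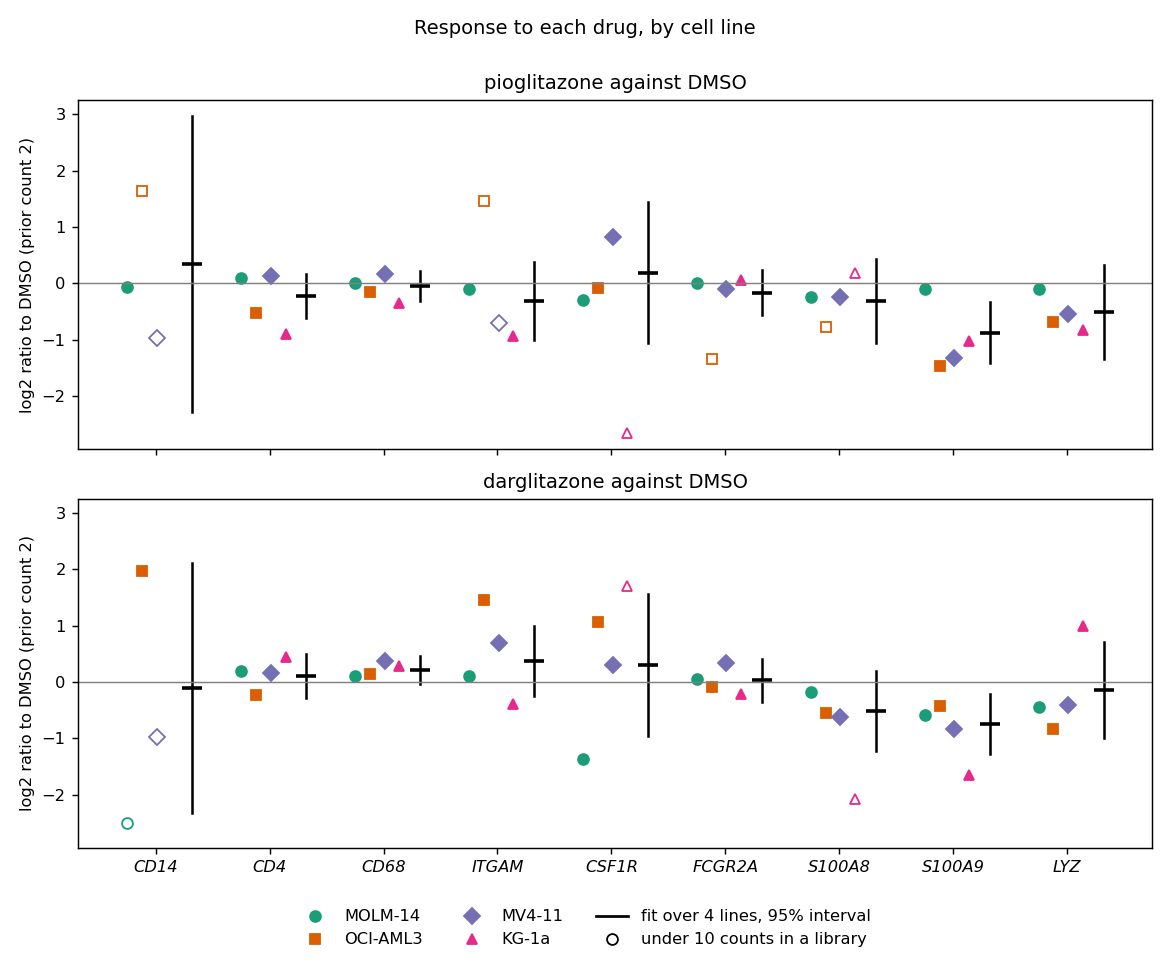
Log2 ratio of each drug to DMSO for the 9 members, by cell line (points) and as the value fitted over the 4 lines with its 95% interval. The fitted interval excludes 0 for S100A9 alone, at -0.88 with pioglitazone and -0.75 with darglitazone, and neither passed the threshold after adjustment over all genes.

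In the main edgeR fit S100A9 had the smallest p of the members with each drug. Without darglitazone-treated KG-1a, LYZ had a smaller one with each drug (values below). From the DMSO library to the pioglitazone library its CPM went from 65.9 to 23.6 (OCI-AML3), 18.3 to 17.1 (MOLM-14), 16.9 to 6.71 (MV4-11) and 8.13 to 3.92 (KG-1a). The darglitazone libraries gave 49.1, 12.2, 9.38 and 2.51 CPM in the same order. Every treated library was therefore below the DMSO library of its line (8 of 8), a pattern that 2.26% of all genes had. With a single drug, 10.5% of all genes were lower in all 4 lines with pioglitazone and 7.03% with darglitazone. With pioglitazone 2 of 9 members were lower in all 4 lines, S100A9 and LYZ, and 0 were higher in all 4 (background 5.87%). The fitted log2 change was -0.88 (SE 0.25, 95% interval -1.42 to -0.33) with pioglitazone, with an unadjusted edgeR p of 0.00387 and an adjusted p of 0.627. It was -0.75 (SE 0.24, -1.27 to -0.22) with darglitazone, with an unadjusted edgeR p of 0.00848 and an adjusted p of 1. With no filter on low counts edgeR called S100A9 (log2 change -0.94, adjusted p = 0.0081) and LYZ (-0.59, 0.00843) with pioglitazone among 223 genes (0.638%), a call made by no other setting that gave these members an adjusted p. DESeq2 gave S100A9 a log2 change of -0.89 with pioglitazone and an unadjusted p of 0.00199, with no adjusted p. Averaged over the drugs, S100A9 gave -0.81 (SE 0.21, -1.26 to -0.37), with an unadjusted edgeR p of 0.00158 and an adjusted p of 0.898. In that contrast edgeR called 0 of 9 members and 0 genes (background 0%; 1 member and 4.86% of genes at an unadjusted p under 0.05), DESeq2 44 genes and 0 of the 2 members to which it gave an adjusted p, and limma-voom 0 of each.

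**Figure D3:**
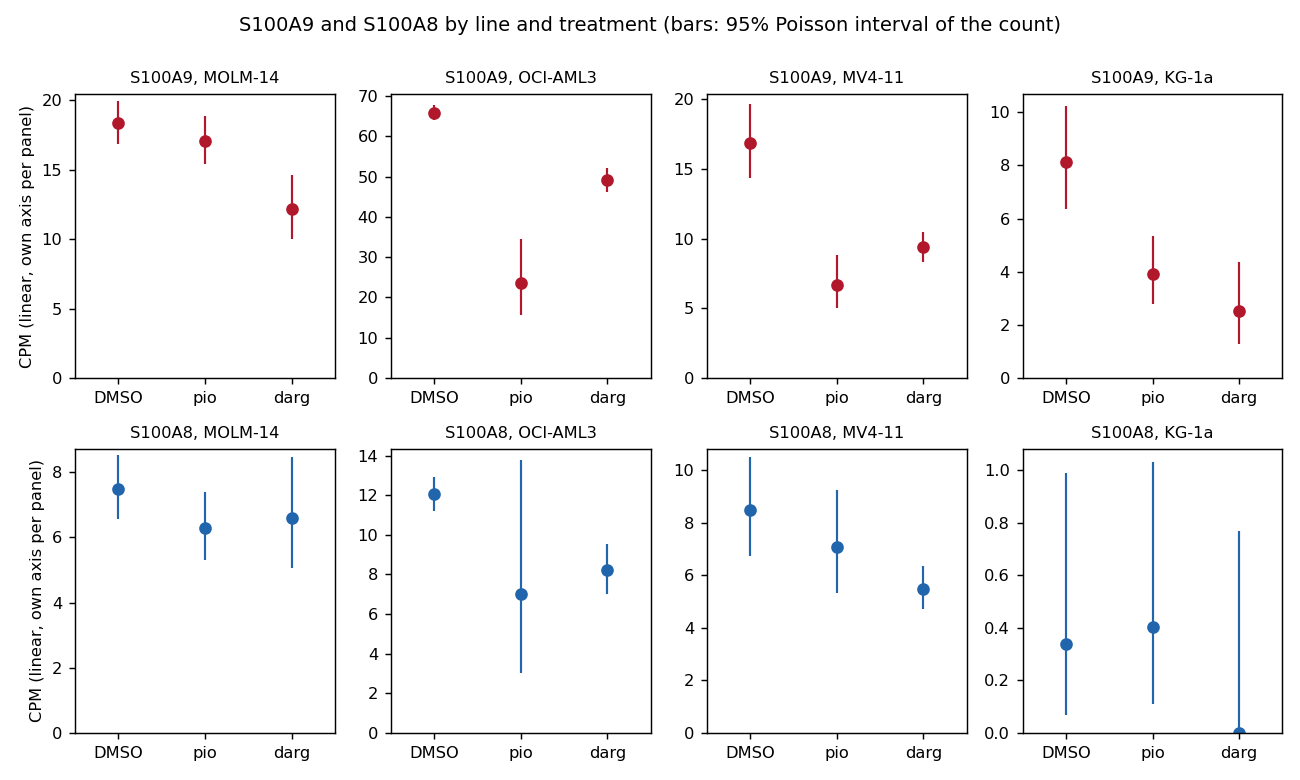
CPM of S100A9 (upper panels) and S100A8 (lower panels) in the 3 libraries of each line, with the 95% Poisson interval of the count, which covers counting error only. In each line S100A9 was lower with either drug than with DMSO, from 16.9 to 6.71 and 9.38 CPM in MV4-11.

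The single ratios of S100A9 to DMSO were uneven between lines. With pioglitazone they were lowest in OCI-AML3 (0.359, 95% counting interval 0.236 to 0.523) and MV4-11 (0.398, 0.286 to 0.547), then KG-1a (0.482, 0.318 to 0.722) and MOLM-14 (0.93, 0.816 to 1.06). The ratios with darglitazone ran in another order, from 0.308 (KG-1a) over 0.556 (MV4-11) and 0.663 (MOLM-14) to 0.745 (OCI-AML3). In MOLM-14 the interval with pioglitazone holds 1, so no difference was detectable there at this depth. The pioglitazone libraries of OCI-AML3 and KG-1a are those rich in ribosomal RNA, and without both the fitted change with pioglitazone was -0.63. In edgeR's quasi-likelihood F test that change had an unadjusted p of 0.0533. After thinning all libraries to the depth of the shallowest, the fitted change was -0.8 with pioglitazone and -0.42 with darglitazone. By the same edgeR test only the pioglitazone value was then under an unadjusted p of 0.05. In darglitazone-treated KG-1a, 4.1 of the 12 counts are matched by the other lines' genes.

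S100A8, which joins S100A9 in calprotectin, was below DMSO in 3 of 4 lines with pioglitazone and in 4 of 4 with darglitazone. In KG-1a this rests on 3 counts with DMSO against 4 with pioglitazone and 0 with darglitazone. Both 95% counting intervals of the ratio there hold 1 (0.201 to 8.1 and 0 to 4.48). The fitted log2 changes were -0.32 (95% interval -1.07 to 0.43) and -0.52 (-1.23 to 0.2), with edgeR adjusted p of 0.949 and 1. LYZ was below DMSO in 4 of 4 lines with pioglitazone, at ratios from 0.559 (KG-1a) over 0.619 (OCI-AML3) and 0.681 (MV4-11) to 0.931 (MOLM-14). Under darglitazone 3 lines were below, at 0.558 (OCI-AML3), 0.735 (MOLM-14) and 0.756 (MV4-11). In KG-1a the ratio of 2.01 rests on the library whose LYZ counts are matched by other lines' genes, mainly those of MV4-11. Over the lines LYZ gave -0.51 (-1.35 to 0.33, edgeR adjusted p = 0.93) with pioglitazone and -0.14 (-1 to 0.71, edgeR adjusted p = 1) with darglitazone. With other lines' counts subtracted the darglitazone value of LYZ was -0.92, with an unadjusted edgeR p of 0.0642 and an adjusted p of 1. Without darglitazone-treated KG-1a the darglitazone value was -0.62, with an unadjusted edgeR p of 0.000863. The pioglitazone value was then -0.55, with an unadjusted edgeR p of 0.000864 and an adjusted p of 0.599. In the same fit S100A9 had an unadjusted edgeR p of 0.0252 with darglitazone and 0.00245 with pioglitazone, and 0 members were called with either drug.

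CD68 was above DMSO in 4 of 4 lines with darglitazone, as were 7.07% of all genes, with a log2 change of 0.21 (95% interval -0.04 to 0.47, edgeR adjusted p = 1), and in 2 of 4 with pioglitazone (-0.05, -0.31 to 0.21). In darglitazone-treated KG-1a, other lines' genes match 20.9 of the 27 CD68 counts. After their subtraction CD68 stood there at 1.25 CPM, below DMSO (3.73), so that line does not hold its direction. CD4 gave -0.22 (-0.62 to 0.17) with pioglitazone and 0.11 (-0.28 to 0.49) with darglitazone. FCGR2A gave -0.17 (-0.57 to 0.23) and 0.03 (-0.35 to 0.41). The intervals of CD68, CD4 and FCGR2A lie within a 2-fold change in either direction with each drug. ITGAM gave -0.32 (-1 to 0.37) and 0.38 (-0.24 to 1). The intervals of CSF1R, 0.19 (-1.07 to 1.44) and 0.31 (-0.95 to 1.57), and of CD14, 0.34 (-2.28 to 2.97) and -0.1 (-2.33 to 2.12), reach beyond 2-fold.

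**Figure D4:**
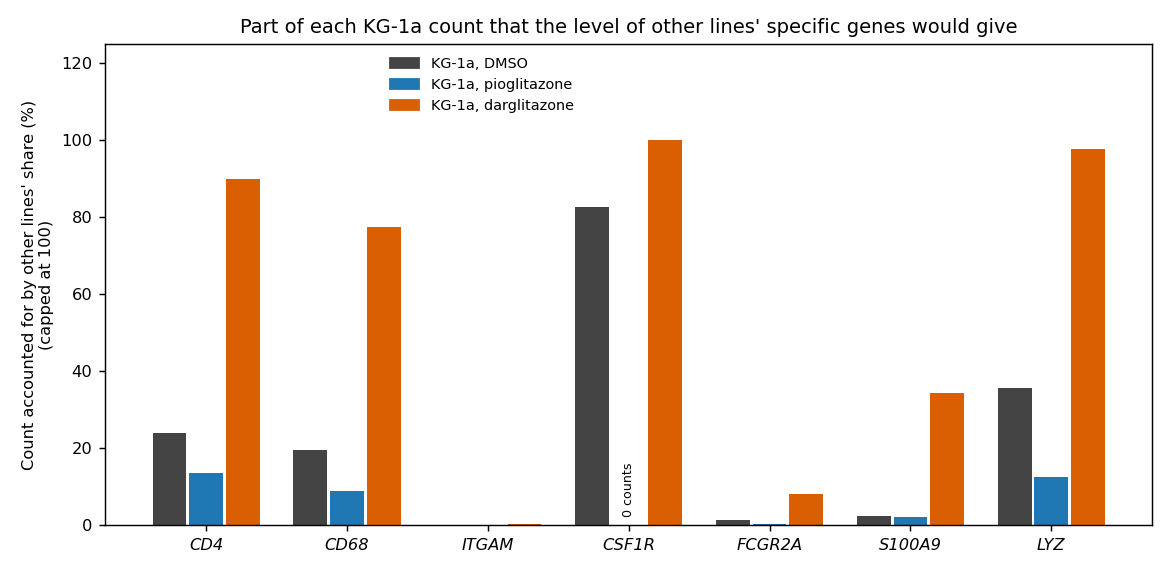
Share of the count of each of 7 members in the 3 KG-1a libraries that the level of other lines' typical genes in the same library would give, in percent and drawn to at most 100. In the darglitazone library it reached 97.6% for LYZ and 89.8% for CD4, and for ITGAM it was at most 0.261%.

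In single lines some members differed at least 2-fold from DMSO, which is a description of 2 libraries and has no replicate. With darglitazone in MOLM-14, 2 of 9 members were that far down, CD14 and CSF1R (background 4.45% of all genes), and with pioglitazone 0 were that far up or down (2.91% and 2.92%). In MV4-11 only S100A9 was that far down with pioglitazone (1 of 9, background 8.69%) and 0 members were that far up (6.79%), and with darglitazone 0 were that far up or down (5.52% and 4.36%). In KG-1a, CSF1R and S100A9 were that far down with pioglitazone (2 of 9, background 7.85%). With darglitazone S100A8 and S100A9 were (2 of 9, 8.06%), while CSF1R and LYZ were that far up (2 of 9, 10.9%). The S100A8 value rests on 3 counts with DMSO against 0 (95% counting interval of the ratio 0 to 4.48). For the 2 higher members, other lines' genes in darglitazone-treated KG-1a would give 12.4 counts of CSF1R, beside 10 read. They match 359.3 of the 368 counts of LYZ, which fell to 1.88 CPM after subtraction, below DMSO (24.7). In pioglitazone-treated OCI-AML3, CD14 and ITGAM were that far up (2 of 9, 10.7%) and FCGR2A and S100A9 that far down (2 of 9, 18.9%). In OCI-AML3 the ratio of darglitazone to DMSO was 4.12 for CD14 (95% counting interval 3.18 to 5.35), 2.9 for ITGAM (2.08 to 4.03) and 2.1 for CSF1R (1.85 to 2.38). These 3 of 9 members compare with 7.23% of all genes, and 0 members were as far down (background 5.34%). With pioglitazone the OCI-AML3 ratios were 3.26 for CD14 (1.17 to 7.33, 6 counts), 2.94 for ITGAM (0.781 to 7.81, 4 counts) and 0.945 for CSF1R, in the shallowest library. In the other lines CSF1R went other ways: 0.381 (0.236 to 0.588) in MOLM-14 with darglitazone, and 1.77 (1.57 to 2.01) in MV4-11 with pioglitazone. ITGAM in KG-1a, its highest line, was at 0.525 (0.48 to 0.574) of DMSO with pioglitazone and 0.763 (0.689 to 0.844) with darglitazone.

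A term for the line in the response, averaged over the drugs, was called for 0 of 9 members by edgeR (1 of all genes, 0.00648%), by DESeq2 (65 genes) and by limma-voom (2 genes). ITGAM alone had an unadjusted edgeR p under 0.05 (0.0163, adjusted p = 1), and DESeq2 put 1 member and limma-voom 3 under that p. Whether the response of any member differed between lines was thus not shown.

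The drugs share the thiazolidinedione ring on a benzyl group and differ in the tail, an ethylpyridine joined through an ether in pioglitazone and a phenyl-substituted oxazole joined through a ketone in darglitazone. At the matched dose and time, 9 member genes were compared between them, with p adjusted over all 15424 genes, and edgeR called 0 (background 0%, with 0 members and 3.51% of genes at an unadjusted p under 0.05). DESeq2 called 0 members and 12 genes with 0 members under that p, and limma-voom called 0 members and 0 genes with 1 member under it. The largest difference was that of ITGAM, 0.69 higher with darglitazone on the log2 scale (95% interval -0.01 to 1.4, edgeR adjusted p = 0.98), followed by CD68 at 0.26 (0 to 0.52) among those with an unadjusted p under 0.06. S100A9 differed by 0.13 (-0.43 to 0.69, edgeR adjusted p = 0.985), an interval that leaves room for either drug to be the lower. A missed threshold does not show that the drugs act alike.

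In the lists around the members the drugs gave 0 calls by edgeR as well. Of the 14 partners tested 6 were higher and 8 lower with pioglitazone (median -0.12), and 9 higher and 5 lower with darglitazone (0.09). Of the 26 further monocyte genes, MS4A7 was higher in 4 of 4 lines with each drug (log2 change 0.63 and 0.4, edgeR adjusted p = 0.627 and 1), and CD93 was lower in 4 of 4 with pioglitazone (-0.49, edgeR adjusted p = 0.806). Among the transcription factors CEBPA was lower in 4 of 4 lines with pioglitazone (-0.55, edgeR adjusted p = 0.735) and NR4A1 higher (1.38, edgeR adjusted p = 0.81), while CEBPB was higher in 4 of 4 with darglitazone (0.65, edgeR adjusted p = 1). Of the granule genes, MPO, the myeloperoxidase of neutrophils and monocytes, was lower in 4 of 4 lines with each drug (-0.59 and -0.69, edgeR adjusted p = 0.822 and 1). The 9 granule markers tested had a median of -0.65 with pioglitazone and -0.09 with darglitazone, beside -0.02 and 0.01 over all genes. Of the macrophage genes FCGRT gave 0.52 with darglitazone (higher in 4 of 4 lines, edgeR adjusted p = 1).

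The remaining genes of those lists that the naming rule picked had small or variable changes. CTSB, a lysosomal protease of macrophages, was 0.46 higher on the log2 scale with darglitazone than with pioglitazone (higher in 4 of 4 lines, edgeR adjusted p = 0.98), and CEBPA was 0.47 higher (4 of 4, edgeR adjusted p = 0.98). LIPA, the lysosomal acid lipase, gave 0.21 with pioglitazone (4 of 4 lines, edgeR adjusted p = 0.909). PAX5, a transcription factor of B cells, gave 0.66 with darglitazone (4 of 4 lines, edgeR adjusted p = 1), and ITGA2B, the platelet integrin chain, gave -0.23 with pioglitazone and -0.04 with darglitazone. The member of each list with the highest mean TPM over the 12 libraries was LST1 (288) among the further monocyte genes, CTSD (96.6) among the macrophage genes, IRF8 (206) among the factors and CTSG (444) among the granule genes. In the lists of other cell types these were CDK6 (104), NKG7 (60.7), CD79B (9.41), FLT3 (65.5) and ITGA2B (23.8).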

How the data were processed

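Total RNA of 12 libraries (4 cell lines, 3 treatments, 1 library each) was extracted with RNeasy and made into stranded libraries after ribosomal RNA depletion, per the labels' protocols. The authors deposited estimated counts per transcript, of which 89.8% of the values above 0 are not whole (tolerance 1e-06). The submitters' processing notes name fastp, FastQC, STAR, featureCounts, DESeq2 and GRCh38. The tool behind the estimated counts and the annotation release are not given in the sources used here. Of 203027 transcripts, 202941 (99.958%) matched GENCODE release 29, and their counts were summed over 57865 genes and rounded.

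edgeR 4.0.16 (R 4.3.3) kept 15424 genes (minimum count 10, minimum total 15), scaled them by TMM and fitted robust quasi-likelihood models of cell line and treatment to all 12 libraries (6 residual degrees of freedom; 3 in the line-by-drug model), with Benjamini-Hochberg adjustment and a threshold of 0.05. Because edgeR bounds the dispersion at the Poisson level, a p can be larger than the interval beside it implies. The line is the replicate and the block that pairs the libraries: deviations from the treatment means correlated at 0.6 to 0.85 between libraries of a line (12 pairs) and at -0.53 to -0.04 between lines (54 pairs). TPM used annotated transcript lengths. Single-line log2 ratios had a prior count of 2, and counting intervals (95%) and limits from 3 counts cover counting error only. Genes typical of a line had at least 30 CPM in each of its libraries. For each receiving line they also had under 1% of their source level in at least 1 of its libraries. In each of the remaining lines their mean was at most 5% of that level. With fewer than 5 such genes the share was set to 0. DESeq2 1.42.0, limma-voom (3.58.1), other scalings, no filter, thinning to the shallowest library, subtraction of other lines' counts and leaving out libraries or lines were the alternatives. Scripts were tested on simulated data. Named were all members and partners, and from each other list and drug contrast the 2 genes with the smallest p and a mean log2 CPM of at least 1, plus the gene with the highest TPM. The likeness values use the 2 genes most correlated with each member. The members and lists were chosen with earlier results of these data known.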

Additional observations from a re-analysis of the deposited data

Results flagged for a closer look

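In 45 groups of 4 lines (27 levels and 18 responses of the members), 7 held a line whose gap to the nearest other exceeded Dixon's critical value (95%) as a share of the group's range. That value flags about 1 in 20 groups drawn independently from a single normal distribution. These groups repeat the same 4 lines and DMSO libraries, and the lines differ in level, so 7 of 45 cannot be set against that rate. OCI-AML3 stood apart for CD14, at 5.25 CPM with pioglitazone (6 counts) and 6.64 CPM with darglitazone. KG-1a stood apart for ITGAM with DMSO, at 148 CPM, and at the low end for S100A8 with pioglitazone, at 0.402 CPM (4 counts). MV4-11 stood apart for CSF1R with pioglitazone, at 80.6 CPM, and for LYZ with darglitazone, at 1605 CPM. The response of FCGR2A to pioglitazone was lowest in OCI-AML3, at a log2 ratio of -1.35 that rests on 9 counts in the shallowest library.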

How the results depend on the processing

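Of the recomputed counts of called members 143 stayed within 1.5 times that of the report and 2 did not, both with no filter on low counts: 2 members with pioglitazone and 1 for the mean of the drugs, against 0 in each. In 3 of the 143, the DESeq2 counts for pioglitazone, the mean of the drugs and the difference between drugs, only 2 to 4 of the 9 members had an adjusted p. Of the single results, 33 recomputed values lost their call and 23 gained one, most of them steps between lines, and these are given beside the members, in part as counts. Leaving out each library or line gave 0 called members for every drug contrast and for the line-by-drug term, and 8 to 9 for the difference between lines. Without the replicate block, that is without the cell line in the model, edgeR called 0 members and 0 genes in each drug contrast, and no call changed. The cause of the changes below was not tested.

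Members whose drug response passed no threshold changed sign in some settings. With pioglitazone, CD4 gave 0.08 without the pioglitazone libraries of OCI-AML3 and KG-1a and 0.04 without the block, and CD68 gave 0 by DESeq2, 0.01 by limma-voom, 0.01 with library sizes from protein-coding genes and 0.07 without those libraries. CD14 gave -0.05 with pioglitazone by DESeq2, while limma-voom kept its sign and gave 1.27. With darglitazone, CD14 gave 1.4 by limma-voom, 0.3 after subtraction of other lines' counts and 1.54 without the block, CD4 gave -0.22 after subtraction, ITGAM -0.28 without the block, and FCGR2A -0.03 without the filter and -0.08 after thinning. S100A9 gave -0.14 between the drugs without the same 2 libraries. Between lines, CD14 in MV4-11 against KG-1a gave -0.33 by limma-voom. ITGAM in OCI-AML3 against MV4-11 gave 0.14 by DESeq2, 0.1 without the filter, 0.63 after thinning, 0.17 after subtraction and 0.03 without the treatment term. S100A8 in MOLM-14 against MV4-11 gave 0.02 without the filter and 0.16 after thinning.

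Over the fits without a library or a line, the pioglitazone values ranged from -0.97 to 1.63 for CD14, -0.13 to 0.01 for CD68, -0.55 to 0.1 for ITGAM and -0.43 to 0.64 for CSF1R. The darglitazone values ranged from -4.2 to 1.22 for CD14, -0.05 to 0.23 for CD4, 0 to 0.76 for ITGAM, -0.19 to 0.87 for CSF1R, -0.09 to 0.14 for FCGR2A and -0.62 to 0.07 for LYZ. S100A9 ranged from -0.17 to 0.48 between the drugs, from -1.25 to -0.68 with pioglitazone and from -1 to -0.62 with darglitazone. Between lines the ranges were -0.03 to 3.2 for CD14 (MV4-11 against KG-1a), -0.76 to 0.62 for ITGAM (OCI-AML3 against MV4-11) and -0.17 to 0.06 for S100A8 (MOLM-14 against MV4-11). Depth limits CD14, S100A8 and CSF1R in KG-1a and every member in pioglitazone-treated OCI-AML3, where 3 counts are 2.627 CPM.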
